A study of Triticum turgidum subsp. durum with 4 samples.

Results

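The wheat families miR1131 to miR1139 are small RNAs that miRBase lists as microRNAs and that resemble short interspersed repeats of grass genomes. Their members were taken from the deposited table of durum wheat (Triticum turgidum subsp. durum) by name alone: every entry whose family lies between miR1131 and miR1139 was kept, and each distinct mature sequence was counted once. This gave 124 of the 2111 distinct sequences in the table. The 124 sequences come from 125 table rows and belong to 8 of the 9 family numbers, since no entry is named miR1132. MIR1139 holds 103 of them, MIR1133 holds 9, MIR1137 holds 3, MIR1131, MIR1135, MIR1136 and MIR1138 hold 2 each, and MIR1134 holds 1. No measured value was used to choose them.

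Plant microRNAs are cut by DICER-LIKE 1 from a folded single-stranded precursor, are mostly 21 nt long, often begin with U and guide ARGONAUTE 1 to messenger RNAs. Small interfering RNAs of 24 nt are made by DICER-LIKE 3 from double-stranded RNA of transposons and other repeats, and guide DNA methylation with ARGONAUTE 4. Short inverted-repeat elements of grasses, known as MITEs, can fold into hairpins when transcribed, so that their small RNAs can enter microRNA lists, and the length of a small RNA is one of the properties used to tell these classes apart.

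Small RNA was sequenced from the shoots of 12-day-old seedlings grown from seeds of 4 groups. The groups combine 2 genotypes with 2 parental treatments. Line 6 (L6) is a breeding line sensitive to combined water-deficit and heat stress, and DBA Aurora is a commercial variety tolerant to it. The libraries are SWH (L6, parents under water-deficit and heat stress), SCG (L6, control parents), TWH (DBA Aurora, parents under water-deficit and heat stress) and TCG (DBA Aurora, control parents). The treatment was given to the parents, and the seedlings of all groups grew in a controlled glasshouse. Each group is 1 library made from the pooled RNA of 8 seedlings, so there is no spread between replicates. A test between 2 libraries therefore compares their reads and does not compare the seed groups. Each genotype is 1 line, so stress tolerance and any other difference between the lines cannot be told apart.

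The reads assigned to table sequences totalled 855716 in SWH, 1293324 in SCG, 1096670 in TWH and 994074 in TCG. Levels are given below as normalised read counts, which are the reads multiplied by 1 factor per library. No member has a value between 0 and 5 reads in any library, so a 0 is a level below 5 reads, which is 5.99 normalised counts in SWH, 4.16 in SCG, 4.73 in TWH and 5.18 in TCG. A fold change against a 0 is a lower bound computed with 5 reads. Of the members 71 were recorded in SWH, 101 in SCG, 106 in TWH and 97 in TCG. The low number in SWH goes with its low depth and the high normalised value of its recording minimum, and their part in it was not tested.

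The sequences below are the most abundant of the families, shown because they carry most of the reads. They are given 5′ to 3′ as DNA letters from the deposited table, with the seed (bases 2 to 8) in capitals. A name ending in p5 or p3 carries the arm label of the deposited table, which was also given to sequences whose locus forms no hairpin. The suffix ss gives the number, positions and letters of the substitutions against the miRBase entry.
tae-MIR1135-p3_1ss11CG: cAAGTAATtcggaacggagggagt
tae-MIR1135-p5_1ss16TA: aTTACTTGtctcggaaatgga
tae-MIR1137a-p5_1ss15GA: cTCCGTTCcaaaatagatgac
tae-MIR1137a-p3_1ss9CT: cATCTATTttggaacggagggagt
tae-MIR1137b-p3_2ss7TC17AG: tTGGGTCAtctattttggaac
tae-MIR1136-p5_2ss4CG21GA: tTCGGAATtacttgtcgcaga
tae-MIR1136-p3_1ss13AG: aTTTTAGTtctagatacatccatt
tae-MIR1133-p5: aAATGGATgtatctagcactaact
tae-MIR1131-p3: gCAGGATGttgtcagtctgggccc
tae-MIR1138-p3_1ss5AG: tTGTGGGAgcttagatgtgacatc
far-MIR1134-p5_2ss10GA20GC: cAACAAGAaaaagagatcac
tae-MIR1139-p3_2ss16CG17AT: aCTAGCTAagttactgtaactacc
No 2 of these share a seed. A pair of the sequences each stand in the table under a second name: the MIR1135-p3 sequence is also listed as tae-MIR1127a-p3_1ss11CG, and the MIR1137a-p5 sequence is also listed as tae-miR1137b-5p_L+1R-1_1ss11GA.

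The families form 2 kinds by their reads. The 13 sequences of MIR1131, MIR1133, MIR1135, MIR1136, MIR1137 and MIR1138 whose miRBase precursor was found in the durum genome (G1 in the study's grouping) carried 95.5% of the members' normalised counts in SWH, 95.02% in SCG, 94.5% in TWH and 94.9% in TCG. The 103 MIR1139 sequences are the reverse case, with many sequences and few reads: they summed to 720.4 normalised counts in SWH, 861 in SCG, 944 in TWH and 911 in TCG. All members together summed to 16657 normalised counts in SWH, 18283 in SCG, 17768 in TWH and 18419 in TCG. This was 1.62% of the normalised counts of all table sequences in SWH, 1.70% in SCG, 1.71% in TWH and 1.79% in TCG. These are shares of the sequences listed as microRNAs and not of all small RNA reads of a library. Over the 124 sequences the median of the mean level was 5.39 normalised counts, against 17.5 over the other 1987 sequences. Of the members 44 were recorded in all 4 libraries and 35 had a mean of at least 10 normalised counts.

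MIR1135 held the most abundant member. tae-MIR1135-p3_1ss11CG had 3397 normalised counts in SWH, 3665 in SCG, 3415 in TWH and 3439 in TCG. Its partner tae-MIR1135-p5_1ss16TA had 2367 in SWH, 2644 in SCG, 2799 in TWH and 2687 in TCG. The MIR1135-p3 level was nearly even, with the highest library 1.08 times the lowest, while SWH was the lowest library for both arms.

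The MIR1137 sequences followed. tae-MIR1137a-p5_1ss15GA had 2477 normalised counts in SWH, 3191 in SCG, 2296 in TWH and 2412 in TCG. tae-MIR1137a-p3_1ss9CT had 2396 in SWH, 2538 in SCG, 2448 in TWH and 2924 in TCG. tae-MIR1137b-p3_2ss7TC17AG had 1530 in SWH, 1508 in SCG, 1709 in TWH and 1892 in TCG. The MIR1137 sequences did not keep the same order of libraries: SCG was highest for the p5 sequence, and TCG was highest for both p3 sequences.

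MIR1136 came next in abundance. tae-MIR1136-p5_2ss4CG21GA had 1307 normalised counts in SWH, 1367 in SCG, 1401 in TWH and 1518 in TCG. tae-MIR1136-p3_1ss13AG had 936 in SWH, 1035 in SCG, 971 in TWH and 1002 in TCG. Both MIR1136 sequences were lowest in SWH. Over the 7 most abundant members, all of MIR1135, MIR1136 and MIR1137, the highest library was between 1.08 and 1.39 times the lowest.

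The remaining families with a mapped precursor were lower. tae-MIR1133-p5 had 389 normalised counts in SWH, 410.0 in SCG, 489 in TWH and 382 in TCG, and tae-MIR1133-p3_1ss11CA had 87.5, 89.1, 114 and 140.4 in the same order of libraries. The MIR1133 p5 sequence was highest in TWH, whereas the p3 sequence was highest in TCG. tae-MIR1131-p3 had 361 in SWH, 267 in SCG, 377 in TWH and 344 in TCG. tae-MIR1131-p5_1ss12TG had 267 in SWH, 172 in SCG, 229 in TWH and 269 in TCG. Both MIR1131 sequences were lowest in SCG. tae-MIR1138-p3_1ss5AG had 264 in SWH, 337 in SCG, 363 in TWH and 293 in TCG. tae-MIR1138-p5_2ss1AG23AG had 122 in SWH, 149 in SCG, 176 in TWH and 173 in TCG. Both MIR1138 sequences were lowest in SWH and highest in TWH.

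MIR1134 and MIR1139 were scarce. far-MIR1134-p5_2ss10GA20GC, the single MIR1134 sequence, had 19 reads in SWH, 18 in SCG, 6 in TWH and 5 in TCG, or 22.8, 15.0, 5.68 and 5.18 normalised counts. Both L6 libraries lay above both DBA Aurora libraries. The most abundant MIR1139 sequence, tae-MIR1139-p3_2ss16CG17AT, had 57.5 normalised counts in SWH, 56.6 in SCG, 75.7 in TWH and 69.4 in TCG.

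**Figure D1:**
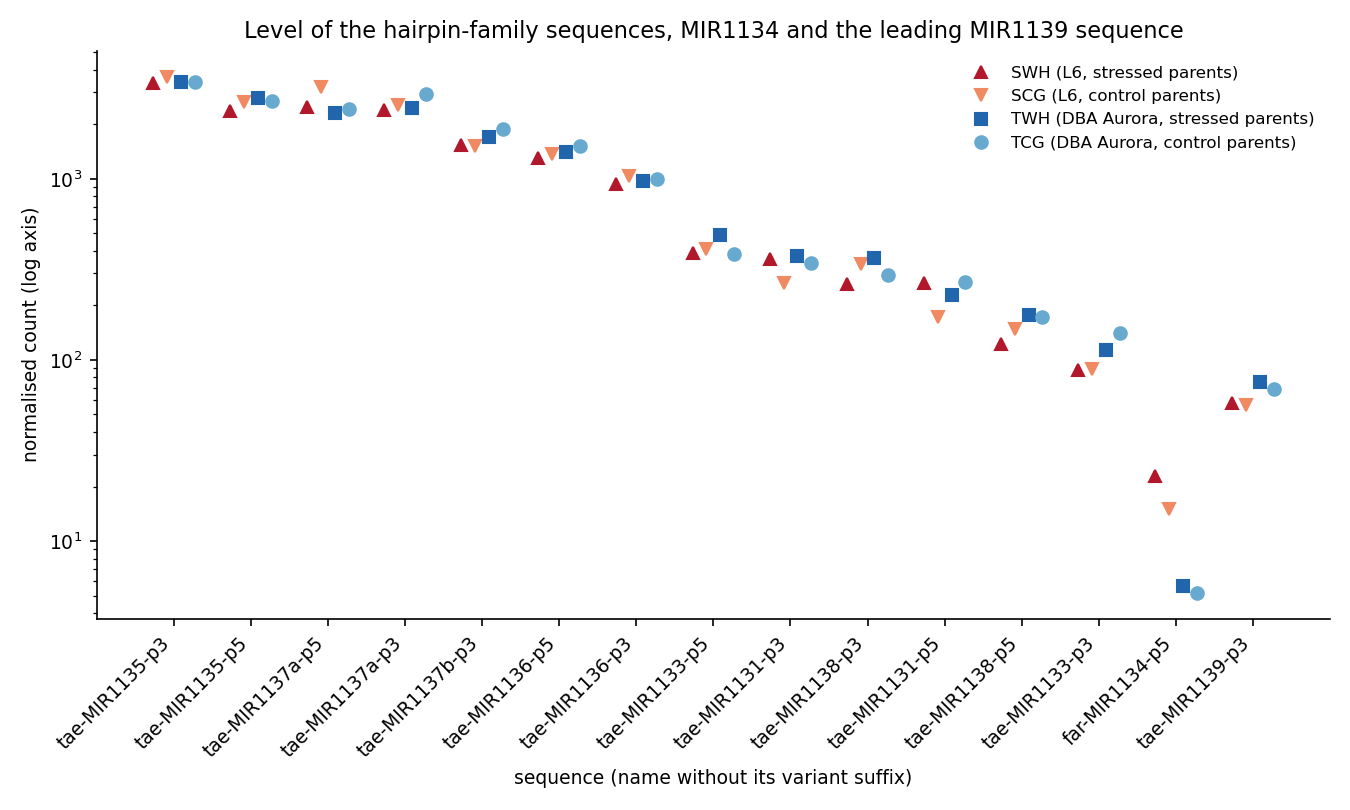
Normalised read counts (log axis) of the most abundant sequence of each family and of other abundant members in SWH, SCG, TWH and TCG, 1 point per library with no error bar because each group is 1 library. The MIR1135, MIR1136 and MIR1137 sequences lie within 1.39 times between libraries, while MIR1134 lies at 22.8 and 15.0 in the L6 libraries and at 5.68 and 5.18 in the DBA Aurora libraries.

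The length of the sequences differed between these families and the rest of the table. Of the 124 sequences 90 were 24 nt (72.6%) and 11 were 21 nt (8.87%), against 30.5% of 24 nt and 37.9% of 21 nt among all other sequences. The other lengths were 20 nt (2 sequences), 22 nt (4), 23 nt (16) and 25 nt (1). Among the related wheat families 24 nt made up 20.6% of the sequences of miR1117 to miR1121, 39.5% of miR1122, 51.5% of miR1123 to miR1130, and 33.8% of miR1436, miR1439 and miR5049, which resemble grass transposons. All these shares are descriptions of the table, with no test.

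Weighted by reads, the picture was more even. The 24 nt members held 52.0% of the members' normalised counts in SWH, 50.6% in SCG, 51.9% in TWH and 51.9% in TCG, and the 21 nt members held 46.7%, 48.3%, 47.0% and 47.2%. In all other sequences 24 nt held 3.15% in SWH, 2.96% in SCG, 3.24% in TWH and 3.20% in TCG. The related groups lay nearer to the members or above them: 24 nt held between 71.8% and 76.8% of the counts of miR1122 and between 69.9% and 73.2% of those of miR1123 to miR1130. It held between 26.4% and 34.3% for miR1117 to miR1121 and between 31.4% and 33.3% for miR1436, miR1439 and miR5049. The even split of the members rests on few sequences: MIR1135-p3, MIR1137a-p3 and MIR1136-p3 are 24 nt, while MIR1135-p5, MIR1137a-p5, MIR1137b-p3 and MIR1136-p5 are 21 nt. Within MIR1135, MIR1136 and MIR1137a, the p5 sequence was thus read as 21 nt and the p3 sequence as 24 nt.

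**Figure D2:**
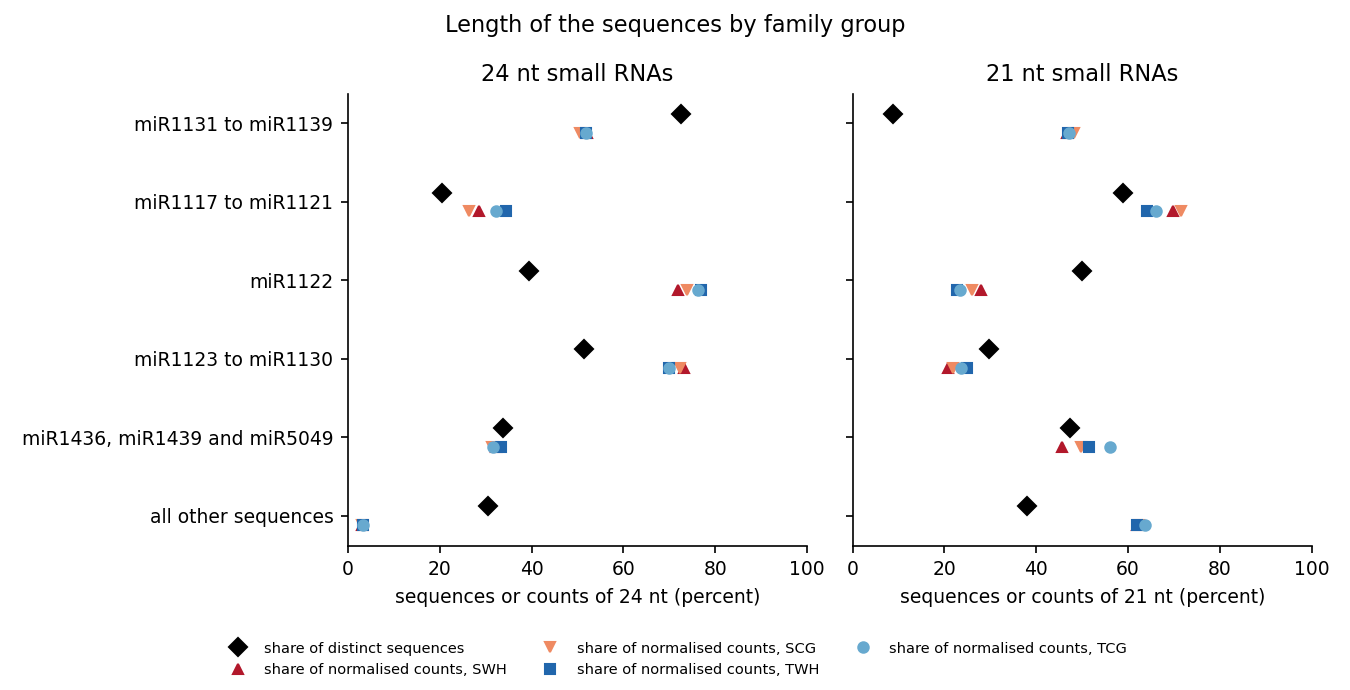
Share (percent) of 24 nt (left) and of 21 nt (right) small RNAs in each family group, as a share of distinct sequences (diamonds) and of normalised counts in each of the 4 libraries (other symbols). For miR1131 to miR1139, 72.6% of sequences were 24 nt but about as many counts were 21 nt as 24 nt, and all other sequences had between 2.96% and 3.24% of their counts at 24 nt.

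The first base also differed from that of the table as a whole. C, the first base of MIR1135-p3, MIR1137a-p5 and MIR1137a-p3, opened 51.8% of the members' counts in SWH, 52.9% in SCG, 47.8% in TWH and 49.5% in TCG, against 6.90%, 6.11%, 7.48% and 6.84% of the counts of all other sequences. T (U in the RNA) opened 20.1% of the members' counts in SWH, 19.3% in SCG, 21.7% in TWH and 22.4% in TCG, against 62.8%, 62.7%, 61.6% and 65.6% of the others. Some related groups had still lower T shares, between 2.71% and 3.24% in miR1122 and between 12.7% and 13.2% in miR1123 to miR1130, and C opened between 23.8% and 27.7% of the counts in these groups. Among the distinct sequences, T opened 37.9% and A opened 37.1% of the members. The median GC content of the members was 33.3%, against 44.4% in all other sequences, and it was the same in miR1123 to miR1130 (33.3%) and 37.2% in miR1122.

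Each mapped family could be placed on a durum precursor (genome Svevo.v1). The MIR1137a precursor is shown because its arms pair most fully and carry reads on both sides. It lies at chr7A:180642582-180642729 on the plus strand and overlaps the annotated gene TRITD_7Av1G076170. The capitals mark the places of the p5 and the p3 sequence.
tae-MIR1137a precursor: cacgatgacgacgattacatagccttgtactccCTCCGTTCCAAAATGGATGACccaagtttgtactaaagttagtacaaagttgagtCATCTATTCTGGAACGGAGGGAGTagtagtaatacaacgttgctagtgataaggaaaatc
In the deposited fold of this precursor 18 bases of MIR1137a-p5 pair with MIR1137a-p3. Read against the precursor, with positions counted from the 5′ end of the read and the precursor base first, the p5 sequence carries G15A and the p3 sequence carries C9T.

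The MIR1135 precursor lies at chr1A:436256026-436256134 on the plus strand, overlaps no annotated gene and ends 874 bases before TRITD_1Av1G161260. It is shown for comparison, with capitals as above.
tae-MIR1135 precursor: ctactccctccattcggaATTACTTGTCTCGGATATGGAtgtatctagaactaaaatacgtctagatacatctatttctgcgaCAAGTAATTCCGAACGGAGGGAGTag
Here 8 bases of the p5 sequence pair with the p3 sequence, and the substitutions are T16A in p5 and C11G in p3. The MIR1137b precursor at chr4A:5745775-5745864 (minus strand), 503 bases from TRITD_4Av1G002900, had 16 paired bases between its arms. The MIR1133 precursor at chr1B:551695125-551695304 (minus strand) had 2. The p5 and p3 sequences of MIR1131 at chr1B:23041655-23041754 (minus strand), MIR1136 at chr6A:10607422-10607528 (minus strand) and MIR1138 at chr1A:531978831-531979024 (minus strand) had 0 bases paired with each other. In MIR1131, MIR1136 and MIR1138 the p5 and p3 sequences therefore did not form a duplex in the deposited fold. These precursors, like those of MIR1133 and MIR1137b, overlap no annotated gene.

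Most sequences on a mapped precursor differed from that listed precursor, and other loci of the genome were not searched here. Of the 13 sequences on a mapped precursor 3 matched it exactly (MIR1131-p3, MIR1133-p5 and MIR1133-p3), 7 had 1 substitution and 3 had 2. The exact share was 23.1%, against 71.4% of the 224 other sequences of that category. The 7 members of category G2 (the read's own genome locus forms a hairpin) and the 104 of category G3 (it does not) all matched their listed locus exactly. Among other sequences 89.0% of G2 and 84.9% of G3 did so. In G2 and G3 the listed locus is where the read itself was mapped, so these shares cannot be compared with that of G1. Category G3 made up 83.9% of the members and 39% of all other sequences. The sequences with substitutions include the 7 most abundant members, so the listed precursor is not by itself shown to be the locus they came from.

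A p5 and a p3 sequence were read in every mapped family. For MIR1131, MIR1136 and MIR1138, where they do not pair with each other, the shares compare labels and not shown opposite arms. The p5 sequence held 41.1% of the p5 and p3 counts of MIR1135 in SWH, 41.9% in SCG, 45.05% in TWH and 43.9% in TCG. For MIR1137a it held 50.8% in SWH, 55.7% in SCG, 48.4% in TWH and 45.2% in TCG. The p5 count was thus the higher in both L6 libraries and the lower in both DBA Aurora libraries. In SWH the counts were nearly equal, with 2066 reads of p5 and 1998.5 of p3. The MIR1137a p5 sequence is also listed for MIR1137b and its reads cannot be divided between these hairpins. Which arm of MIR1137a leads in a library is therefore not settled. For MIR1133 the p5 share was 81.6% in SWH, 82.2% in SCG, 81.2% in TWH and 73.1% in TCG. The other shares were 58.3%, 56.9%, 59.1% and 60.2% for MIR1136, 42.6%, 39.1%, 37.8% and 43.9% for MIR1131, and 31.7%, 30.7%, 32.6% and 37.1% for MIR1138, in the order SWH, SCG, TWH and TCG. The most uneven pair was MIR1133 in SCG, where p5 had 410.0 and p3 had 89.1 normalised counts.

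**Figure D3:**
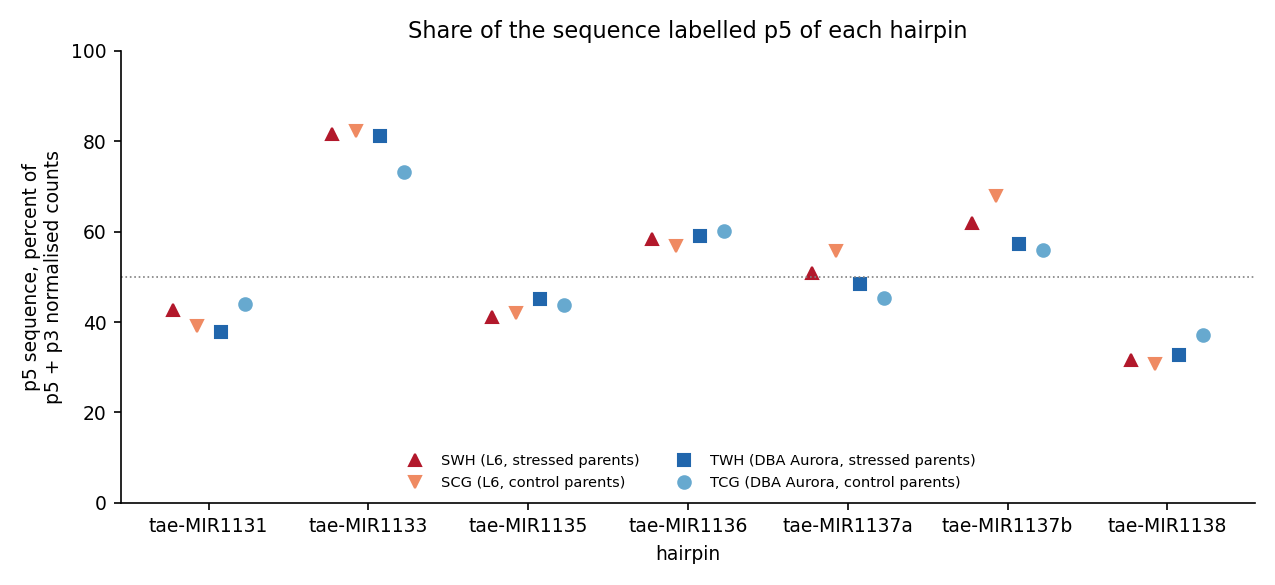
Share (percent) of the p5 sequence in the summed p5 and p3 normalised counts of 7 hairpins, 1 point per library. MIR1133 lies between 73.1% and 82.2% and MIR1138 between 30.7% and 37.1%. MIR1137a lies above the midline in SCG, barely above it in SWH (50.8%) and below it in TWH and TCG. Its p5 reads are also listed for MIR1137b and cannot be divided.

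Several of the families also match one another. The longest stretch that MIR1137a-p5 shares with the opposite strand of MIR1137a-p3 is 19 letters (CTCCGTTCCAAAATAGATG), and it shares 17 letters with that of MIR1137b-p3. Across families, MIR1136-p3 shares 15 letters with the opposite strand of MIR1133-p5 (CTAGATACATCCATT), and MIR1135-p3 shares 10 letters with that of MIR1136-p5 and 9 letters with that of MIR1137a-p5 (GGAACGGAG). On the same strand, MIR1135-p3 shares 14 letters with MIR1137a-p3 (GGAACGGAGGGAGT), and MIR1135-p5 shares 10 letters with MIR1136-p5 (ATTACTTGTC). Searched on both strands, GGAACGGAG stood in 3 of the 124 members, 19 of the 74 sequences of miR1436, miR1439 and miR5049 (25.7%), and 2.23% of all sequences. In the precursors, CTCCCTCC and its reverse complement GGAGGGAG, which can pair as the ends of an inverted repeat, stood together in 3 of all 114 member precursors (2.63%), against 14.6% of the 1716 other precursors. All 3 were among the 7 precursors of mapped members (MIR1135, MIR1136 and MIR1137a), and none was among the 99 MIR1139 precursors. The mapped precursors are between 90 and 194 nt long. Some listed MIR1139 precursors are far shorter, such as 23 nt for tae-MIR1139-p3_14, and leave little room for both words. The shares were not adjusted for length. Outside the families, 51 sequences shared at least 16 letters on either strand with a member, 31 of them MIR1128 sequences that matched MIR1136. Reads of such sequences can be split or shared among family names, so the level of a single name is uncertain to that extent. These matches are descriptions of letters and not binding or cutting sites.

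MIR1139 had a different make-up. Its 103 sequences had 73 distinct sets of counts and were listed on all 14 durum chromosomes. They were 24 nt in 75 cases, 21 nt in 6, and labelled 5′ in 41 cases and 3′ in 62. The family's most common 12-letter word, AGGTTATAGACT, stood on either strand in 36 of the 124 members and in 0 of the 1987 other sequences. The word was picked from the MIR1139 sequences, which are named by their match to miRBase entries. Its absence from other names therefore partly follows from the naming and is no independent result. The sequences below, shown because they step along 1 stretch, are exact matches to the tae-MIR1139 hairpin of miRBase, with the seed in capitals.
tae-MIR1139-p5_7: tTCATTTAttaggttatagactca
tae-MIR1139-p3_15: tCATTTATtaggttatagactcat
tae-MIR1139-p3_5: aTTTATTAggttatagactcatat
tae-MIR1139-p3_12: tATTAGGTtatagactcatattgc
tae-MIR1139-p5_3: aTTAGGTTatagactcatattgca
tae-MIR1139-p3_17: tTAGGTTAtagactcatattgcat
They start at hairpin positions 104, 105, 107, 110, 111 and 112. These overlapping reads of the same strand are called p5 or p3 by turns.

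On the whole tae-MIR1139 hairpin of 217 nt, 96 sequences could be placed, all on the same strand. Of these 25 matched exactly, 37 had 1 mismatch and 34 had 2. The names rest on a match to the miRBase entry, so the placement and the few mismatches partly follow from the naming. They started at 39 distinct positions and covered 163 of the 217 positions (75.1%). The 37 sequences with a 5′ label and the 59 with a 3′ label both had a median start at position 106, and positions 121 to 125 were covered by 60 sequences, 25 labelled 5′ and 35 labelled 3′. Here the arm label did not separate 2 arms of the miRBase hairpin. The listed durum loci differ from it: tae-MIR1139-p5_7 lies at bases 1 to 24 of 48 and tae-MIR1139-p3_12 at bases 14 to 37 of 37. tae-MIR1139-p3_5 fills its listed locus of 24 bases. How the labels relate to the listed loci was not tested. The other 7 MIR1139 sequences were placed on the bdi-MIR1139 hairpin (Brachypodium distachyon) of 120 nt. Seeds were as varied as the starts, with 50 distinct seeds in MIR1139 and 71 in all members. The most frequent seeds were TTTATTA in 9 sequences and CATTTAT in 8.

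**Figure D4:**
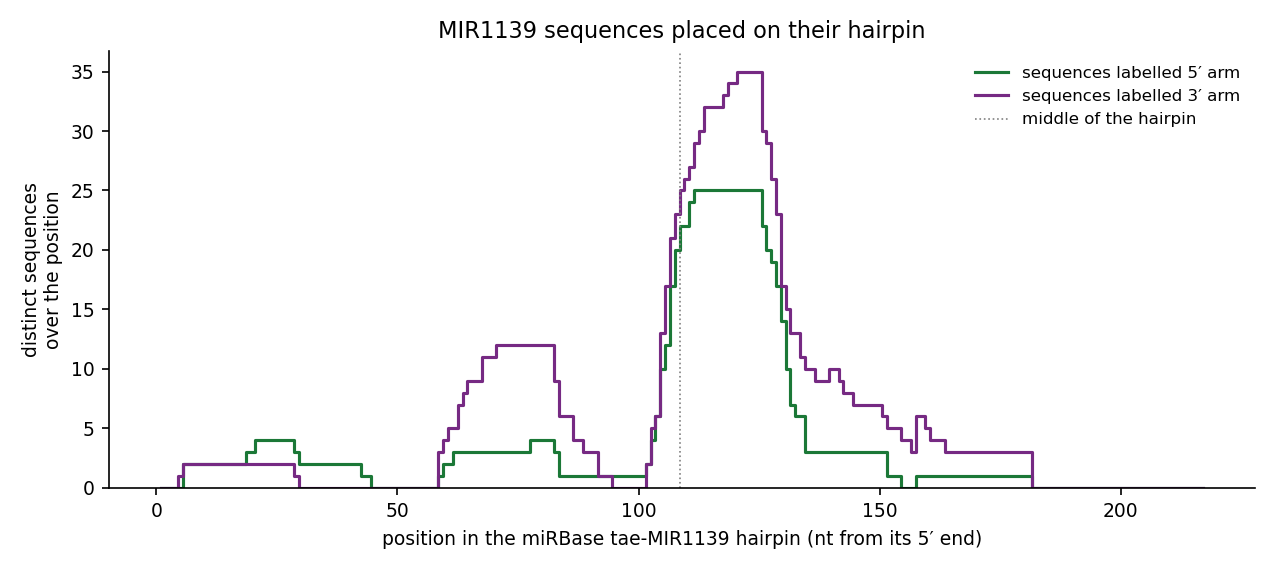
Number of distinct MIR1139 sequences (y axis) that cover each position of the tae-MIR1139 hairpin in nt (x axis), by arm label. Sequences with either label pile up at the same place, with 25 of 5′ label and 35 of 3′ label over positions 121 to 125.

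Part of the MIR1139 list carries repeated values. Names that differ only in a final number had identical reads in every library: this held for all 8 such sets among the members (38 names) and for all 108 sets of the table (325 names). The 18 sequences named tae-MIR1139-p3 each stood at 0 in SWH, 6.66 in SCG, 6.63 in TWH and 6.21 normalised counts in TCG. The 7 sequences named tae-MIR1139-p5 each stood at 5.99 in SWH, 11.7 in SCG, 8.52 in TWH and 0 in TCG. The 124 members thus hold 94 distinct sets of counts, and numbered names were counted once in the sums where this is stated.

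For the parental treatment within L6 (SWH against SCG), the question was whether the families differed between seedlings of stressed and of control parents. A member was called changed if the chi-squared test and the two-sided Fisher's exact test, each adjusted by the Benjamini-Hochberg method over all sequences, passed 0.05 and the fold exceeded 2. Of 107 tested members 3 were higher in SWH and none was lower, or 2.80% of members beside 4.73% of all 1967 tested sequences. They were tae-MIR1139-p5_1ss16CT (12.0 in SWH, 0 in SCG), tae-MIR1139-p3_1ss14CT (9.59 in SWH, 0 in SCG) and bdi-MIR1139-p5_2ss11CT17CG (9.59 in SWH, 0 in SCG), which had at least 8 reads in SWH and fewer than 5 in SCG. When a 0 was set to 4 reads, the most that the recording minimum hides, none of them was called, beside 1.83% of all. Among sequences with at least 10 normalised counts in 1 library, 1 of 45 members (2.22%) was called, beside 5.45% of all.

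Within DBA Aurora (TWH against TCG), 3 of 121 tested members were called, or 2.48% beside 7.74% of all 1977 sequences. tae-MIR1139-p5_1ss2CA and tae-MIR1139-p5_2ss12AG22AC were higher, both with 10.4 in TWH and 0 in TCG, and tae-MIR1139-p5_1ss15AG was lower, with 0 in TWH and 11.4 in TCG. As in L6, every called member stood at 0 in one library and none was called with a 0 set to 4 reads, beside 3.84% of all. Among sequences with at least 10 normalised counts in 1 library, 3 of 45 members (6.67%) were called, beside 10.9% of all.

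Between the genotypes after parental stress (SWH against TWH), 3 of 118 tested members were called, all higher in SWH, or 2.54% beside 11.4% of all 1985 sequences. far-MIR1134-p5_2ss10GA20GC had 22.8 in SWH and 5.68 in TWH, a log2 fold change of 2.004 (adjusted p = 0.0076 by the chi-squared test and 0.0080 by Fisher's exact test). tae-MIR1139-p5_1ss23AC had 22.8 in SWH and 7.57 in TWH (log2 1.59, adjusted p = 0.022 and 0.028), and tae-MIR1139-p5_2ss11AG21AC had 13.2 in SWH and 0 in TWH. The first 2 of these have reads in both libraries and were still called with a 0 set to 4 reads, beside 7.2% of all sequences. At a minimum of 10 normalised counts in 1 library, 3 of 41 members (7.32%) were called, beside 14.4% of all.

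Between the genotypes with control parents (SCG against TCG), 16 of 119 tested members were called, 9 higher and 7 lower in SCG, or 13.4% beside 17.4% of all 2039 sequences. All are MIR1139 sequences, and the 16 hold 10 distinct sets of counts because 7 of the 9 higher ones are the numbered tae-MIR1139-p5 sequences (11.7 in SCG, 0 in TCG). tae-MIR1139-p5_1ss23AC had 15.0 in SCG and 0 in TCG, and tae-MIR1139-p3_1ss3GA had 12.5 in SCG and 0 in TCG. Among the lower ones, bdi-MIR1139-p5_1ss8CG stood at 0 in SCG and 14.5 in TCG, tae-MIR1139-p3_2ss3CT19CT at 0 in SCG and 11.4 in TCG, and tae-MIR1139-p5_1ss12GA, tae-MIR1139-p3_1ss21AT and bdi-MIR1139-p5_2ss11CT17CG each at 0 in SCG and 10.4 in TCG. tae-MIR1139-p5_2ss18CG24AC was the only one of the 16 recorded in both libraries, with 15.0 in SCG and 38.3 in TCG (log2 -1.35, adjusted p = 0.0043 by the chi-squared test and 0.0044 by Fisher's exact test). With a 0 set to 4 reads, 2 of the 16 were called, or 1.68% of members beside 12.4% of all. At a minimum of 10 normalised counts, 15 of 55 members (27.3%) were called, beside 23.1% of all. MIR1134 had 15.0 in SCG and 5.18 in TCG and did not pass (adjusted p = 0.082 by the chi-squared test and 0.099 by Fisher's exact test).

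In all 4 comparisons the 13 sequences on mapped precursors stayed below the 2-fold criterion. Without the fold criterion 7 members passed both tests in SWH against SCG (6.54%, beside 13.7% of all), 31 in TWH against TCG (25.6%, beside 21.1%), 51 in SWH against TWH (43.2%, beside 35.0%) and 34 in SCG against TCG (28.6%, beside 35.3%). With a 0 set to 4 reads, 3, 3, 8 and 9 members passed both tests in the same order of comparisons. With numbered names counted once, 7, 22, 32 and 28 passed. The share of all sequences without the fold criterion was not computed at these settings. The numbers that passed thus depend on the value set for a 0 and on repeated counts. Abundant sequences have narrow counting errors, and several were among those that passed without the fold criterion. tae-MIR1131-p5_1ss12TG was 0.64 higher on the log2 scale in SWH than in SCG and differed by -0.64 in SCG against TCG. tae-MIR1137a-p5_1ss15GA differed by -0.37 in SWH against SCG and by 0.40 in SCG against TCG. Both patterns centre on SCG, where MIR1131 was low and MIR1137a-p5 was high, and both comparisons use that library. tae-MIR1138-p3_1ss5AG differed by 0.31 in TWH against TCG and by -0.46 in SWH against TWH. These sequences were named here for their abundance and after their values were seen.

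**Figure D5:**
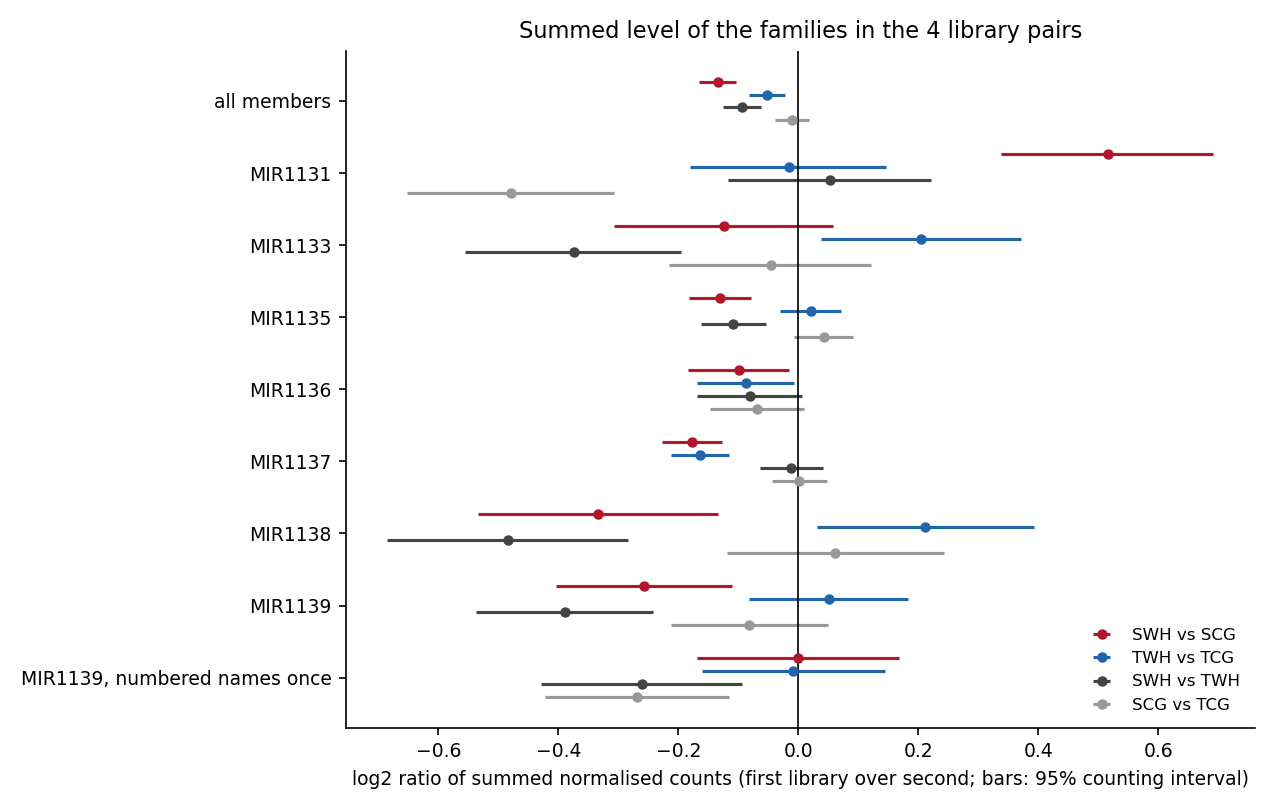
Log2 ratio of the summed normalised counts of each family except MIR1134 and of all members in SWH against SCG, TWH against TCG, SWH against TWH and SCG against TCG, with 95% intervals that cover counting error only. MIR1131 lies above zero in SWH against SCG (0.52), and MIR1138 lies below zero in SWH against SCG (-0.33) and above it in TWH against TCG (0.21).

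Summed over all members, the log2 ratio was -0.13 in SWH against SCG (95% interval -0.17 to -0.10), -0.05 in TWH against TCG (-0.08 to -0.02), -0.09 in SWH against TWH (-0.12 to -0.06) and -0.01 in SCG against TCG (-0.04 to 0.02). These intervals come from the binomial distribution of the reads and cover counting error only, since each group is 1 library. They also take reads as independent, which PCR copies are not. With trimmed mean (TMM) scaling the TWH against TCG value was 0.02, so its direction depends on the scaling. MIR1131 gave 0.52 in SWH against SCG (0.34 to 0.69) and -0.48 in SCG against TCG (-0.65 to -0.31). MIR1138 gave 0.21 in TWH against TCG (0.03 to 0.39) and -0.33 in SWH against SCG (-0.53 to -0.13). MIR1139 gave -0.26 in SWH against SCG (-0.40 to -0.11), but with numbered names counted once it gave -0.00014 (-0.17 to 0.17), as 18 sequences at 0 in SWH repeat 1 set of counts. Counting numbered names once moved MIR1139 the other way in SCG against TCG, to -0.27 (-0.42 to -0.11), beside -0.08 (-0.21 to 0.05) with all sequences. In SWH against TWH it was below zero either way, at -0.39 (-0.54 to -0.24) with all sequences and -0.26 (-0.43 to -0.09) with numbered names once.

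Over all 4 libraries, an additive model of genotype and parental treatment was fitted with edgeR's quasi-likelihood test, which leaves 1 residual degree of freedom. Of the 1258 sequences with a mean of at least 10 normalised counts 35 are members, of which 21 belong to MIR1139. For parental treatment 0 of the 35 members passed an adjusted p of 0.05 (0% of all sequences were called), and 0 had an unadjusted p under 0.05, beside 20 of all 1258. For genotype 0 members passed, beside 0.0795% of all, and 1 of 35 had an unadjusted p under 0.05, beside 174 of all 1258. This was far-MIR1134-p5_2ss10GA20GC, with a log2 difference of 1.76 for L6 against DBA Aurora (edgeR unadjusted p = 0.028, adjusted p = 0.28). For genotype DESeq2 called 0 members beside 35 of all sequences and had 0 members at an unadjusted p under 0.05 beside 112 of all. For the same factor limma called 0 members beside 10 of all and had 2 at an unadjusted p under 0.05 beside 194 of all. For parental treatment both tools called 0 sequences and had 0 members at an unadjusted p under 0.05, beside 12 of all by DESeq2 and 24 by limma. With 1 residual degree of freedom these tests can miss differences, and a p above the threshold does not show that the levels were equal.

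Some members were recorded in 1 genotype or 1 parental treatment alone. In L6 alone 3 members were recorded (2.42%, beside 6.35% of all sequences), of which tae-MIR1139-p3_2ss14AG24AC was most abundant, with 5.99 in SWH and 7.49 in SCG. In DBA Aurora alone 17 were recorded (13.7%, beside 6.82% of all), of which bdi-MIR1139-p5_1ss8CG was most abundant, with 5.68 in TWH and 14.5 in TCG. In the libraries of stressed parents alone 5 were recorded (4.03%, beside 3.41%), led by tae-MIR1139-p5_1ss16CT, and in those of control parents alone 6 (4.84%, beside 5.97%), led by tae-MIR1133-p5_1ss4CT. None of these members exceeded 14.5 normalised counts in any library. Members lie nearer to the recording minimum than the rest, with a median mean level of 5.39 against 17.5 in all other sequences. In SWH, where 5 reads are 5.99 normalised counts, only 71 members were recorded. The part of the recording minimum and of depth in these shares was not tested.

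The bdi-MIR1139 sequences, some of which overlap, include several recorded in 1 genotype alone. Of the 7, 4 were recorded in both DBA Aurora libraries and in neither L6 library: bdi-MIR1139-p5_1ss8CG, bdi-MIR1139-p3_2ss7CG24TC, bdi-MIR1139-p5_2ss7CG21AC and bdi-MIR1139-p3_2ss11CT17CA. The first 3 of them share 21, 20 and 21 letters with bdi-miR1139_L-1R+4_1ss11CG_2, a sequence of 24 nt. That name was recorded in all 4 libraries, with 46.7 normalised counts in SWH, 39.1 in SCG, 36.0 in TWH and 37.3 in TCG. The same counts stand under bdi-miR1139_L-1R+4_1ss11CG_1, which differs in the last base, so the level of either sequence alone is not known. bdi-MIR1139-p3_2ss11CT17CA, at 4.73 in TWH (the level of 5 reads) and 7.25 in TCG, shares 6 letters with it and is not a shifted form of it. However, bdi-MIR1139-p5_2ss11CT17CG was placed at the same hairpin positions as bdi-MIR1139-p3_2ss11CT17CA, with G in place of A in its last substitution. That read had 9.59 in SWH, 0 in SCG, 6.63 in TWH and 10.4 in TCG. The sequences below are given, with the seed in capitals, to show how the overlapping ones are shifted against each other, and bdi-MIR1139-p3_2ss7CG24TC, bdi-MIR1139-p5_2ss7CG21AC and bdi-MIR1139-p3_2ss11CT17CA were named after their values were seen.
bdi-miR1139_L-1R+4_1ss11CG_2: aGTAACATagactagtaacatgcc
bdi-MIR1139-p5_1ss8CG: tAACATAGactagtaacatgcata
bdi-MIR1139-p3_2ss7CG24TC: aACATAGActagtaacatgcatac
bdi-MIR1139-p5_2ss7CG21AC: aACATAGActagtaacatgcc
bdi-MIR1139-p3_2ss11CT17CA: aGGCTGGTcatagtggagagtaac
The most abundant of the overlapping reads, whose counts stand under 2 names, was recorded in both genotypes. Of the 4 sequences below the recording minimum in both L6 libraries, 3 were shifted against it and 1 shared 6 letters with it.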

How the data were processed

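The authors sequenced small RNA (TruSeq Small RNA kit, single-end reads, HiSeq2500) from 4 pooled shoot libraries and processed the reads with the ACGT101-miR program (version not given in the sources used here). Reads of 18 to 25 nt were kept, those matching RFam, Repbase or durum messenger RNA were removed, and the rest were matched to miRBase, allowing 1 mismatch and end variation, and to the durum genome Svevo.v1. The deposited raw values are estimated counts, since some are not whole, and the deposited normalised values are a signal that the authors obtained by multiplying the counts of each library by 1 factor. The number of columns of no sample was 0.

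Rows were reduced to distinct mature sequences. Pair tests (chi-squared and two-sided Fisher's exact test on normalised counts, Benjamini-Hochberg adjustment) ran over the whole table. A 0 was set to 5 reads for fold changes only. For edgeR the estimated counts were rounded. The tools were Python 3.11.15 with SciPy 1.17.1 and pandas 2.3.3, and R 4.3.3 with edgeR 4.0.16, limma 3.58.1 and DESeq2 1.42.0, and the tests were tested on simulated data. Totals over the table sequences were between 855716 and 1293324 counts. Chromosome names of the genome sequences were assigned by the order of the 14 sequences and checked by their last positions. The named sequences are the most abundant of each family, the 5 most abundant members, the called members with the highest and lowest fold changes of each comparison, the most abundant member recorded in 1 genotype or parental treatment alone, and members that share a sequence. Others were named after their values were seen. The members and lists were chosen with earlier results of these data known. Alternatives covered the adjustment, the value of a 0, names in place of sequences, TMM scaling, raw reads, a count minimum, the fold criterion and other tools. Counting numbered names once was added after seeing the data.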

Additional observations from a re-analysis of the deposited data

Results flagged for a closer look

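The parental treatment went in opposite directions in the 2 genotypes for the summed MIR1138 family, which was lower in SWH than in SCG (log2 -0.33) and higher in TWH than in TCG (0.21), a difference of 0.54 between DBA Aurora and L6. The same held for tae-MIR1138-p3_1ss5AG, the more abundant of the 2 MIR1138 sequences, at -0.35 in L6 and 0.31 in DBA Aurora, a difference of 0.67. In both cases the 95% counting intervals of the 2 genotypes lay on opposite sides of zero, which was so for 1 of the 8 families and 1 of the 41 distinct sets of counts recorded in all 4 libraries. The difference was not tested, since each group is 1 library. Without tae-MIR1138-p3_1ss5AG the family is a single sequence, at -0.29 in L6 and 0.03 in DBA Aurora, with both intervals crossing zero.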

How the results depend on the processing

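With a 0 set to 4 reads, the members called were 0 in SWH against SCG, 0 in TWH against TCG and 2 in SCG against TCG. With no fold criterion they were 7 in SWH against SCG, 31 in TWH against TCG, 51 in SWH against TWH and 34 in SCG against TCG, beside 13.7%, 21.1%, 35.0% and 35.3% of all sequences. Setting a 0 to 4 reads as well left 3, 3, 8 and 9 members, and the share of all sequences was not computed there. Raw reads, compared by their totals over table sequences, gave 1 in TWH against TCG. A minimum of 10 normalised counts in 1 library gave 1 in SWH against SCG. Numbered names counted once, chosen after seeing the data, gave 10 in SCG against TCG. TMM scaling moved the sum of all members to 0.018 in TWH against TCG, opposite in sign, and to 0.037 in SCG against TCG. Without the most abundant member the SCG against TCG sum was -0.04 (-0.07 to -0.0034), an interval that no longer spans zero. MIR1133 changed sign in TWH against TCG, from 0.20 (0.04 to 0.37) to -0.22 (-0.55 to 0.11) without its most abundant member, an interval that spans zero. A shift of a sum was judged against the mean distance from the sum to the ends of its counting interval. Of the other alternatives for single families under TMM scaling or without their most abundant member, 44 moved the sum by less than this distance and 15 by more. The cause of these changes was not tested, apart from the values set for a 0 and for the fold. Of the other alternatives for called members and for the sum of all members, 41 without and 9 with numbered names counted once kept the result. They kept the sign of the sum and moved it by less than the mean distance to its interval ends, or kept the number called within 1.5 times. Such numbers called were between 15 and 20 in SCG against TCG and 2 or 3 in SWH against TWH. Sequences under 5 reads are not seen. No paired analysis was possible because each group is 1 library and no library carries a replicate number, so leaving out a replicate was not possible either.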
